A study of Callithrix jacchus with 5 samples.

Results

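The marmoset embryonic stem (ES) cell line DSY127 was sequenced at P17 and is compared here, across all genes, with the ES lines No20 (P45) and No40 (P63). ES cells are pluripotent cells grown from the early embryo, and P numbers are taken here as passage numbers. The comparison uses 3 of the 5 libraries of common marmoset (Callithrix jacchus) cells in the series, 1 for each line, chosen by their labels. A library of induced pluripotent stem (iPS) cells, made from fibroblasts by RNA-based reprogramming per the series title, serves as an outside check, and a library of fibroblasts at P1 gives levels in a cell that is not pluripotent. The labels give no further genotype, sex, treatment or culture detail for any of them. DSY127 is the line with the lowest P number, and line and P number cannot be told apart, because each line was sequenced at 1 P number only. Total counts over genes were 34111715 in DSY127, 46523012 in No40 and 40825547 in No20. The iPS library held 5746449 counts, 16.8% of the depth of DSY127, and the fibroblast library 58601185. Levels are given in CPM, which are counts per library total after TMM scaling of that total, and 3 counts make 0.083 CPM in DSY127, 0.060 in No40, 0.068 in No20 and 0.513 in the iPS library.

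Pluripotent cells are held by a network around POU5F1, NANOG and SOX2. In primate cultures the state can lie nearer the naive, preimplantation type, in which genes such as KLF17 and DPPA5 are on, or nearer the primed, postimplantation type. Small numbers of cells in such cultures can start towards mesoderm, endoderm, trophoblast or amnion, which TBXT, GATA6 and KRT7 respectively help to mark. In these bulk libraries a higher share of cells of a type and more RNA per cell cannot be told apart. The pluripotency factors were present in all 3 lines. POU5F1, the central factor of the network, stood at 1725 CPM in DSY127, 1399 in No40 and 1126 in No20. NANOG stood at 559, 459 and 520 CPM in the same order. SOX2, the partner of POU5F1, stood at 162, 242 and 145 CPM. None of these passed the test of DSY127 against the other lines. LIN28A, an RNA-binding repressor of let-7, had 355, 555 and 316 CPM, and EPCAM, an epithelial surface protein of pluripotent cells, 886, 430 and 522 CPM. MYC had 224, 336 and 182 CPM. Values spread more for KLF4 (174, 262 and 17.9 CPM), the DNA methyltransferase DNMT3B (1976, 2961 and 707 CPM) and E-cadherin CDH1 (525, 810 and 211 CPM). In KLF4, DNMT3B and CDH1 the low library was No20, with DSY127 between the other lines.

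DSY127 and No40 were the pair of libraries with the fewest genes far apart. Of 11536 genes with at least 5 CPM in the higher of both, 222 (1.92%) differed at least 4-fold between DSY127 and No40. Between DSY127 and No20 the count was 445 of 11533 (3.86%), and between No40 and No20 it was 476 of 11567 (4.12%). From the shallower iPS library DSY127 differed at least 4-fold at 537 of 11678 genes (4.60%), No40 at 591 and No20 at 966. Across 11231 genes Pearson's r of log2 CPM was 0.918 for DSY127 with No40, 0.885 with No20 and 0.884 with the iPS library. These are descriptions across genes, which are not independent replicates.

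Of 16858 genes tested, 8 (0.0475%) were called, 7 (0.0415%) of them higher in DSY127 than in the other ES lines and 1 (0.00593%) lower, by edgeR's quasi-likelihood test at a Benjamini-Hochberg adjusted p under 0.05. The test sets 1 library against 2, so DSY127 is assumed to vary like No40 and No20. Its p-values rest on how far apart those lines are, mostly as pooled over genes (1 residual and 9.74 prior degrees of freedom). The gap between those lines at a single gene thus carries only part of its p and SE. Each SE was derived from the log2 fold change and the F statistic of the test. Those lines differ in both name and P number. Without adjustment, p was under 0.05 for 304 genes higher (1.80%) and 167 lower (0.991%). A second, untested yardstick was used beside the calls. A gene is described as set apart where its log2 CPM in DSY127 lay at least 2 (4-fold) above both other lines, or below both, and the higher of DSY127 and the mean of the others reached 5 CPM. By this rule of size 83 genes (0.492%) were set apart higher and 14 (0.083%) lower. A symbol was found for 43 of the 83 and for 6 of the 14. The rule cuts through a continuous range: SP8 lay just inside it at a log2 difference of 2.05 to the nearer line and NPNT just outside at 1.997, while on the lower side OAS3 lay inside at -2.01 and TPH2 outside at -1.95.

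**Figure D1:**
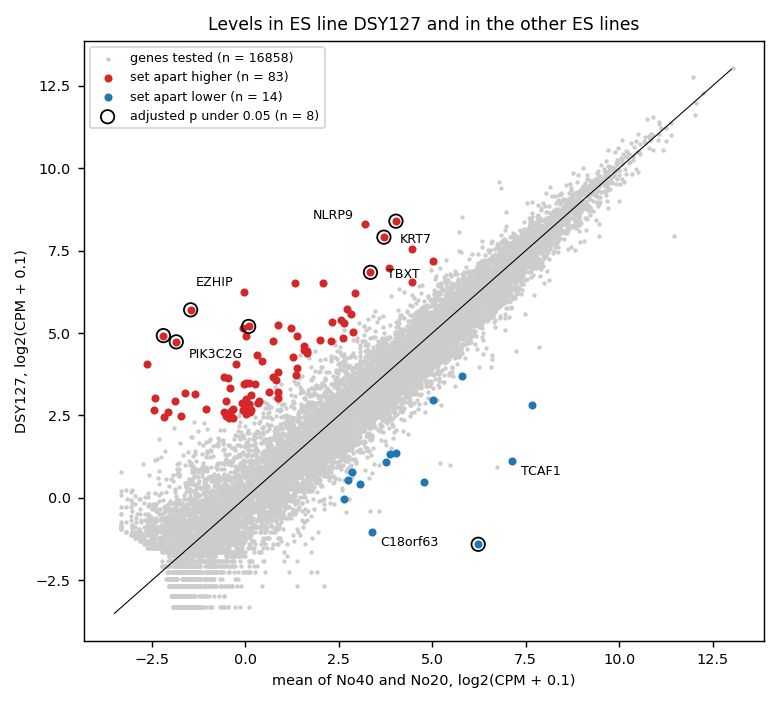
Each point is 1 of the 16858 genes tested, with log2(CPM + 0.1) in DSY127 on the vertical axis and of the mean of No40 and No20 on the horizontal axis. Red and blue points are the 83 and 14 genes set apart, circles mark the 8 genes called, and the line marks equal levels; more genes lie far above the line than far below it.

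The called genes with a symbol were KRT7, PIK3C2G and TBXT, all higher in DSY127. KRT7, a keratin of simple epithelia that is also used as a marker of trophoblast and amnion, lies on chromosome 9 from 41102415 to 41176987 in the coordinates of the files. It stood at 239.9 CPM in DSY127, 14.1 in No40, 11.8 in No20, 69.6 in the iPS library and 15.6 in the fibroblasts. The other ES lines were level with the fibroblasts, DSY127 was 17-fold above the nearer line, and the iPS library lay between. The log2 fold change of KRT7 was 4.21 ± 0.47 (SE, 1 library against 2; edgeR adjusted p = 0.00967). PIK3C2G encodes a class II phosphoinositide 3-kinase and lies on chromosome 9 from 2945372 to 3358339. Its level was 26.5 CPM in DSY127 against 0.242 in No40 and 0.114 in No20, which rest on 12 and 5 counts. The iPS library held 48.1 CPM, more than DSY127, and the fibroblasts 0.211. The log2 fold change of PIK3C2G against the ES lines was 7.18 ± 0.87 (edgeR adjusted p = 0.0151), and 0.75 with the iPS library added to the comparators. TBXT (brachyury), the T-box factor of the primitive streak and early mesoderm, lies on chromosome 4 from 167222055 to 167231350. It stood at 114 CPM in DSY127, 10.9 in No40, 9.26 in No20, 39.2 in the iPS library and 0.042 in the fibroblasts. DSY127 was 10.5-fold above the nearer ES line, at a log2 fold change of 3.51 ± 0.49 (edgeR adjusted p = 0.0457). TBXT is the least secure of the 3: its adjusted p was 0.0558 with TMM factors over the ES libraries alone, 0.066 over genes with a mean of at least 5 CPM, 0.0816 with all 5 libraries in the fit and 0.0852 with limma voom.

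The other 5 called genes were matched to no symbol. ENSCJAG00000014902 on chromosome 15 stood at 30.2 CPM in DSY127, 0.101 in No40, 0.136 in No20 and 0 in the iPS library, where a count of 0 allows up to 0.513 CPM. ENSCJAG00000003751 on chromosome 6 stood at 52.0, 0.161, 0.364 and 1.37 CPM in the same order. Both were thus near silent in the other ES lines. In the iPS library ENSCJAG00000003751 was low but above the floor of 0.513 CPM, resting on 8 counts. The only gene called lower was ENSCJAG00000010567 on the X chromosome. It held 0.277 CPM in DSY127, resting on 10 counts, against 97.4 in No40, 52.3 in No20, 33.9 in the iPS library and 78.6 in the fibroblasts. Its log2 fold change was -8.06 ± 0.87 (edgeR adjusted p = 0.00768), so DSY127 was the only library of the 5 in which this gene was near silent. ENSCJAG00000012444, the other unnamed lower gene chosen by rule, was set apart but did not pass (1.30, 21.1 and 33.1 CPM in DSY127, No40 and No20; edgeR adjusted p = 0.214).

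Genes used as markers of trophoblast and amnion were the list, among those with at least 8 tested members, with the largest share of genes highest in DSY127. Of 14 tested members of the trophoblast and amnion list, DSY127 was highest of the 3 lines in 13 (92.9%) and lowest in 1, with a median log2 fold change of 1.46. Over all genes tested DSY127 was highest in 30.9% and lowest in 30.4%, with a median of -0.05. KRT7 was the member called, and KRT7 and EPAS1 were set apart. EPAS1, the oxygen-regulated factor HIF-2 alpha, had 53.3 CPM in DSY127, 9.03 in No40, 4.03 in No20 and 73.7 in the iPS library. It is not specific to these lineages, and the fibroblasts held 681 CPM. GATA2, a zinc finger factor of trophoblast and blood, had 24.8 CPM in DSY127, 3.31 in No40 and 7.05 in No20, and 1.71 in the iPS library (edgeR adjusted p = 1.0). CDX1, a caudal homeobox gene, had 27.0, 5.20 and 13.1 CPM in the 3 lines, and GABRP, an amnion marker, 16.1, 13.4 and 0.205 CPM. In GABRP the difference was thus between No20 and the other lines. CDX2, among the defining factors of this list, was near 0 in all 3 lines (0.720, 0.040 and 0.227 CPM). The 1 member lowest in DSY127 had a log2 fold change of -2.60. In 9 of the 14 members DSY127 or the mean of the others reached 5 CPM. TFAP2A stood at 10.9 CPM in DSY127 but 238 in the iPS library, and TFAP2C at 55, 54.9 and 3.64 CPM in DSY127, No40 and No20. The median for this list was 2.09 against No20 alone and 1.04 against No40 alone.

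Other genes of epithelia showed the same position of DSY127. Of 24 tested members of the epithelial list DSY127 was highest in 19 (79.2%) and lowest in 2, with a median log2 fold change of 0.45, or 0.27 against No40 alone. LAD1, a basement membrane anchoring protein, had 88.0 CPM in DSY127, 25.1 in No40, 27.6 in No20 and 29.6 in the iPS library. Here the other 3 pluripotent libraries lay close together and DSY127 above them. The membrane protease ST14 stood at 169, 78.7 and 53.8 CPM, and the transcription factor OVOL1 at 8.03, 2.60 and 0.705 CPM, in DSY127, No40 and No20. Outside the lists, VGLL1, a TEAD cofactor known from trophoblast, stood at 6.04 CPM in DSY127, 0.121 in No40, 0.159 in No20 and 0 in the iPS library (edgeR adjusted p = 0.278). SERPINB5 (maspin), an epithelial serpin, had 7.59 CPM in DSY127, 0.605 in No40, 0.591 in No20 and 4.11 in the iPS library. DLX3, a homeobox gene of placenta and epidermis, had 7.59, 0.343 and 0 CPM in the 3 lines. None of the members of the epithelial list passed the test. ITGB6, an epithelial integrin subunit, stood at 6.4, 0.585 and 0.182 CPM in DSY127, No40 and No20 and 1.03 in the iPS library.

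**Figure D2:**
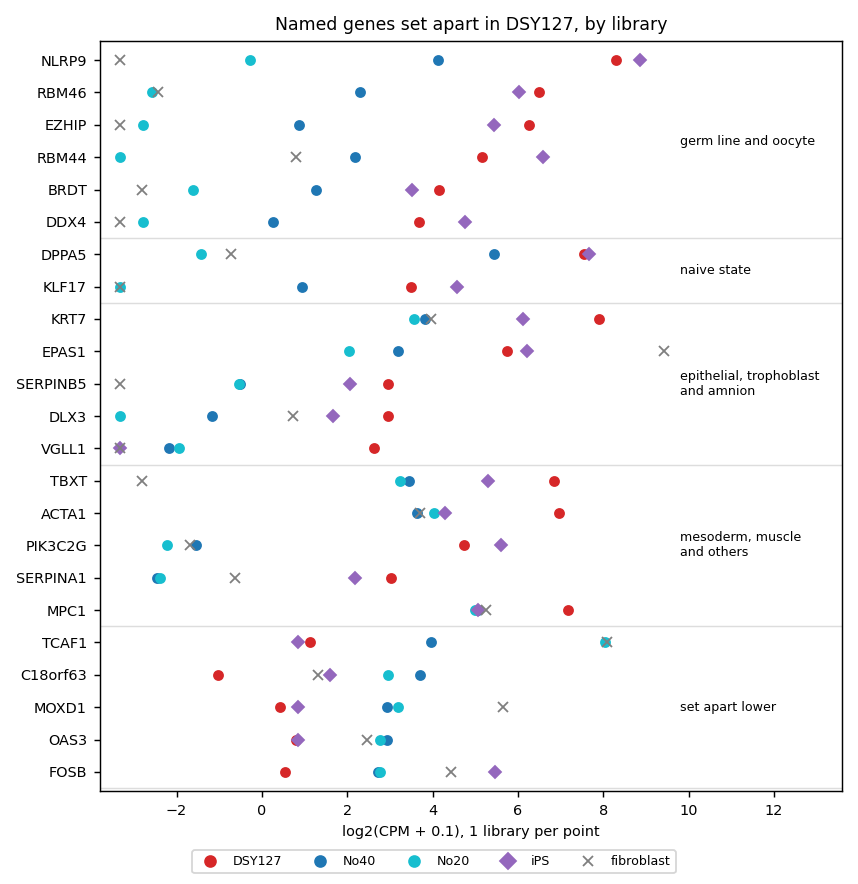
Levels of 23 genes set apart in DSY127, as log2(CPM + 0.1), with 1 library per point; the groups on the right were made after the values were seen. In the upper 18 genes DSY127 lies above both other ES lines, and in the germ line and naive genes the iPS library lies beside DSY127 while No20 is lowest of the ES lines.

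Some of the genes with a symbol that were set apart higher by most are known from germ line or oocyte. These were NLRP9, EZHIP, RBM46 and DDX4, grouped after the values were seen, and EZHIP and RBM46 came from no gene list. In them the 3 lines formed a ladder from DSY127 through No40 to No20. By the lists, 2 of 28 tested germ cell members (7.14%) and 1 of 11 oocyte and embryo members (9.09%) were set apart higher. Over all genes tested the share was 0.492%. NLRP9, an oocyte and embryo member of the NLRP family, stood at 316 CPM in DSY127, 17.4 in No40, 0.728 in No20 and 463 in the iPS library. EZHIP, an inhibitor of Polycomb repressive complex 2 known from germ cells, stood at 76.1 CPM in DSY127, 1.71 in No40, 0.045 in No20 and 42.9 in the iPS library. RBM46, an RNA-binding protein of meiotic germ cells, had 90.6, 4.80, 0.068 and 65.3 CPM in the same order. In each, the iPS library and DSY127 were high and No20 was near 0, with values in No20 resting on 32 counts for NLRP9, 2 for EZHIP and 3 for RBM46. DDX4 (VASA), a germ cell helicase, had 12.6 CPM in DSY127, 1.09 in No40, 0.045 in No20 and 26.9 in the iPS library. BRDT, a testis bromodomain protein, had 17.6, 2.32, 0.227 and 11.3 CPM. RBM44, an RNA-binding protein of germ cells, had 35.7, 4.45, 0 and 95.5 CPM, and the meiotic kinase AURKC 7.56, 0.726, 1.66 and 15.6 CPM. None of these genes passed the test. The other lines differed widely from each other in them, except in AURKC. The SE of the log2 fold change was 1.15 for NLRP9, 1.30 for RBM46 and 1.26 for DDX4, against 0.47 for KRT7. It was 1.05 for SERPINA1, where both other lines were alike at 4 counts. The parts of low counts and of the gap between lines in these SEs were not tested. For the germ line genes the edgeR adjusted p ranged from 0.214 for EZHIP to 1.0 for DDX4.

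In the wider germ cell list the distance from No40 was small. Of 28 tested members DSY127 was highest of the 3 lines in 15 (53.6%) and lowest in 1, with a median log2 fold change of 0.77, and 2 (7.14%) were set apart. Against No20 alone the median was 2.68, and against No40 alone 0.18. With the iPS library in the place of No20 it was -0.37, and in the place of No40 -0.03. DDX43, a helicase of germ cells, had 174 CPM in DSY127 and 108 in No40 against 0.432 in No20, and STRA8, a meiosis gatekeeper, 13.7 and 12.7 against 0.182. PIWIL1, a piRNA-binding protein, had 45.9 and 24.7 against 0.819 CPM. These members separated No20 from the other lines and not DSY127 from No40. The synaptonemal protein SYCP1 stood at 27.0, 9.92 and 0.409 CPM and PNLDC1, a piRNA trimmer, at 35.4, 15.8 and 3.73 CPM in DSY127, No40 and No20, below the iPS library in both (56.1 and 146 CPM). MAEL, a piRNA pathway gene, had 17.7, 10.8, 1.18 and 48.1 CPM. Among 11 tested oocyte and embryo genes DSY127 was highest in 7 (63.6%) and lowest in 1, with a median of 1.12. That median was 2.82 against No20 alone and 0.40 with the iPS library in the place of No20. Log2 fold changes in this list ranged from -6.53 to 5.13, so the largest change was towards lower levels in DSY127. In 5 of the 11 genes DSY127 or the mean of the others reached 5 CPM. NLRP7 had 766, 214 and 6.73 CPM and KHDC3L, a subcortical complex gene, 369, 110 and 0.5 CPM in the 3 lines. In the iPS library they stood at 738 and 227 CPM.

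Naive state genes split in the same way. Of 14 tested members DSY127 was highest in 7 (50%) and lowest in 1, with a median log2 fold change of 0.48. That median was 1.93 against No20 alone, 0.33 against No40 alone and -0.08 with the iPS library in the place of No20. DPPA5, an RNA-binding protein of preimplantation cells, had 188 CPM in DSY127, 43.6 in No40, 0.273 in No20 and 203 in the iPS library. KLF17, a factor of the human naive state, had 11.1, 1.81, 0 and 23.8 CPM. Both were set apart, with edgeR adjusted p of 1.0. The primed state list gave 1 of 12 highest in DSY127 and 3 lowest, at a median of -0.16, and the core pluripotency list 5 and 2 of 18 at a median of -0.07, which turned to 0.61 against No20 alone. HDGFL1, a gene related to hepatoma-derived growth factor, followed the naive genes at 35.2 CPM in DSY127, 1.65 in No40, 0.045 in No20 and 48.8 in the iPS library.

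TBXT did not come with the rest of the primitive streak genes. Among 19 tested members of the streak and mesoderm list DSY127 was highest in 6 (31.6%) and lowest in 4, and TBXT was the 1 member called and set apart. EOMES, the T-box factor that acts beside TBXT in the streak, had 11.7 CPM in DSY127, 5.91 in No40 and 66.7 in No20. MIXL1, a homeobox gene of the streak, had 6.65, 3.91 and 24.6 CPM, and GATA6 of endoderm and mesoderm 38.2, 16.2 and 89.4 CPM. In these 3 genes No20 was the highest line and DSY127 the middle one. The median of the list was -0.47, and 0.51 against No40 alone. Among 22 tested endoderm genes DSY127 was highest in 13 and lowest in 4, at a median of 0.41, or 0.69 against No40 alone. CER1, a secreted NODAL and BMP antagonist, had 23.7, 70.9 and 390 CPM, lowest in DSY127 (log2 fold change -3.28 ± 0.92, edgeR adjusted p = 1.0). The endoderm factor FOXA2 was similar in the lines at 8.45, 5.66 and 11 CPM.

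Some single genes, several of them known from liver or visceral endoderm, are given by their values. All were highest in DSY127 among the ES lines, and none of them passed the test. SERPINA1 and RARRES2 were named by rule and the others after their values were seen. In the endoderm list 0 genes were set apart, and its CPM summed to 609 in DSY127, 386 in No40 and 822 in No20. SERPINA1 (alpha-1 antitrypsin) had 8.09 CPM in DSY127 against 0.081 in No40 and 0.091 in No20, 4 counts in each, and 4.45 in the iPS library. Its log2 fold change of 6.51 ± 1.05 did not pass (edgeR adjusted p = 0.0944). The vitamin D binding protein GC had 40.3, 7.03, 2.68 and 28.4 CPM in DSY127, No40, No20 and the iPS library. LPL, lipoprotein lipase, had 27.5, 5.44, 2.32 and 39.3 CPM in that order. For both of these the iPS library stood with DSY127. APOA1 and APOB, the structural proteins of lipoproteins, had 40.6, 5.87 and 16.8 CPM and 43.9, 16.7 and 6.91 CPM in the 3 ES lines. LRP2 (megalin), an endocytic receptor of the visceral endoderm, had 51.0, 19.1 and 2.68 CPM. RARRES2 (chemerin), a secreted chemoattractant, had 12.5, 1.03 and 0.227 CPM, with 3.25 in the iPS library and 10.4 in the fibroblasts.

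In the muscle list 1 gene, ACTA1, was set apart and 0 were called. ACTA1, skeletal muscle alpha-actin, had 125 CPM in DSY127, 12.3 in No40, 16.2 in No20, 19.3 in the iPS library and 12.9 in the fibroblasts. DSY127 stood 7.71-fold above the nearer ES line while the other 4 libraries lay within a narrow range, at a log2 fold change of 3.13 ± 0.48 (edgeR adjusted p = 0.0773, and 5.9e-05 with DESeq2). ACTC1, cardiac alpha-actin, had 36.9, 5.48 and 12.5 CPM and MYL4, an atrial myosin light chain, 9.58, 2.46 and 2.96 CPM in the 3 lines. Of 10 tested muscle genes DSY127 was highest in 8 (80.0%) and lowest in 0, with a median log2 fold change of 1.33. MYL7, the other atrial light chain gene listed, differed less at 16.1, 12.6 and 9.23 CPM. MYOD1 stood at 0.111, 0.040 and 0.045 CPM, and MYOG had no count in DSY127 or No40. Alpha-actin genes are similar in their coding sequence, so some reads may be shared between ACTA1, ACTC1 and other actins.

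A further gene was high in DSY127 alone. MPC1, a subunit of the mitochondrial pyruvate carrier, stood at 145 CPM in DSY127 and between 31.9 and 37.8 CPM in the other 4 libraries, at a log2 fold change of 2.15 ± 0.46 (edgeR adjusted p = 0.476). MPC1 lies on chromosome 4, and its start at 167457321 is 235 kb from that of TBXT. This was 1 of 2 pairs of neighbours within 500 kb among the 83 genes, and none was found among the 14. The 2 tested genes between TBXT and MPC1 did not share the difference: SFT2D1 had 27.2, 24.3 and 27.5 CPM in DSY127, No40 and No20, and PRR18 was under 1 CPM in each. SALL3 (24.2, 4.05 and 1.66 CPM) and SP8 (39.8, 2.74 and 9.60 CPM), both zinc finger factors of the embryo, were also set apart without passing the test.

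Fewer genes were set apart lower. TCAF1, a TRP channel-associated factor, had 2.08 CPM in DSY127, 15.4 in No40, 264 in No20, 1.71 in the iPS library and 272 in the fibroblasts. No20 was thus level with the fibroblasts, and DSY127 with the iPS library. C18orf63, an open reading frame with no role given here, had 0.388, 12.9, 7.62 and 2.91 CPM in DSY127, No40, No20 and the iPS library. MOXD1, a monooxygenase family member, had 1.25, 7.52, 8.96 and 1.71 CPM. FOSB, an immediate early factor, had 1.36, 6.53 and 6.69 CPM in the ES lines, and 44.0 in the iPS library. OAS3, an interferon-induced enzyme, had 1.63, 7.52, 6.73 and 1.71 CPM. None of these genes passed, with edgeR adjusted p from 0.606 for C18orf63 to 1.0.

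The iPS library had no part in choosing the genes, and it stood on the side of DSY127 at some of them. At 52 of the 83 genes set apart higher (62.7%) its log2 CPM was nearer to DSY127 than to the mean of the other ES lines. The share was 74.4% in the 43 with a symbol (32 genes), so it was lower in those without one. Of the 7 genes called higher, the iPS library was nearer to DSY127 at 3 (42.9%). Over the 11517 genes that reached 5 CPM the share was 51.1%, and over the 3465 of them with DSY127 above both lines 43.0%. The iPS library was above both other ES lines at 73 of the 83 genes and at least 4-fold above both at 39. It was at or above DSY127 at 21, below both other lines at 7 and without a count at 2. The genes that it shared with DSY127 included NLRP9, DPPA5, KLF17, DDX4, EZHIP, RBM46, PIK3C2G and HDGFL1. Of the 14 genes set apart lower, the iPS library was nearer to DSY127 at 7 (50%), among them TCAF1, MOXD1 and OAS3. It was nearer to the other ES lines at the other 7, among them C18orf63 and FOSB. Over the 3550 genes that reached 5 CPM with DSY127 below both lines, the share nearer to DSY127 was 57.7%. The share at the 14 genes was thus not above that of such genes at large. At 48 of the 83 genes the fibroblasts held under 1 CPM, and there the iPS library was nearer to DSY127 at 32 (66.7%). The same share over all genes under 1 CPM in the fibroblasts was not computed, so the 66.7% has no baseline. In the iPS library the list of fibroblast and mesenchymal genes summed to 16984 CPM, against 6700 in DSY127, 7876 in No40, 7119 in No20 and 124010 in the fibroblasts. The part of that difference in the position of the iPS library was not tested.

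With the iPS library as a further comparator, 27 genes (0.160%) were set apart higher in DSY127 and 7 (0.0415%) lower, and 6 of these 7 were among the 14 above. The 9 with a symbol among the 27 were VGLL1, ITGB6, NAAA, ACTA1, AP1S3, ACSBG2, DLK2, METRNL and MPC1. None of the germ line, oocyte or naive genes named above was among them. The same comparison gave 0 called genes in either direction by edgeR, with 159 higher and 61 lower at an unadjusted p under 0.05, and 11 higher and 6 lower by DESeq2. The DESeq2 calls included 5 of the 8 genes called against the ES lines alone, and among genes with a symbol they were ACTA1, AP1S3, MPC1 and VGLL1 higher and C18orf63 lower.

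**Figure D3:**
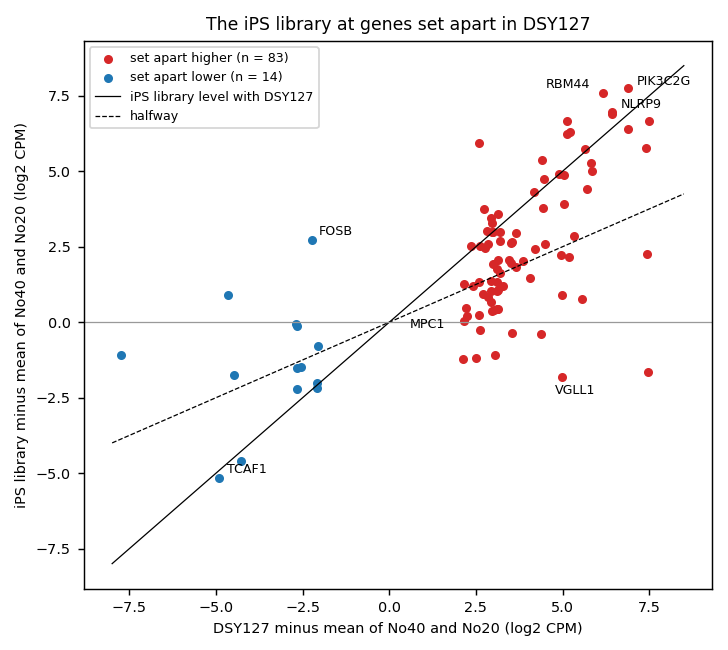
The 97 genes set apart in DSY127, with the log2 CPM difference of DSY127 from the mean of No40 and No20 on the horizontal axis and that of the iPS library from the same mean on the vertical axis. Points above the dashed line on the right, or below it on the left, have the iPS library nearer to DSY127; the fine horizontal line marks the mean of the other ES lines.

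The other lines also differed from each other at these genes. Of the 83 genes set apart higher, 57 (68.7%) were lowest in No20 (P45) and 26 (31.3%) in No40 (P63). Over the 11517 genes with at least 5 CPM the same orders of the 3 lines held for 15.2% and 14.9%. Each line has 1 library, so line and P number cannot be told apart here either. At 17 of the 83 genes No40 was itself at least 4-fold above No20, at 0 the reverse held, and at 5 No20 had no count. Of the 14 genes set apart lower, 10 had No20 highest. DSY127 alone against No20 stood at least 4-fold higher at 333 genes and lower at 112, and against No40 at 135 and 87.

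Lists of metabolic and interferon response genes held no called member. In the oxidative phosphorylation list DSY127 was highest in 16 of 22 genes (72.7%) and lowest in 0, at a median log2 fold change of 0.29 (0.53 against No40 alone) and a range from -0.05 to 0.93. SDHB, a subunit of complex II, had 72.3, 44.6 and 40.9 CPM, and NDUFV1 of complex I 57.3, 35.2 and 28.0 CPM in DSY127, No40 and No20. None was called or set apart. Cholesterol synthesis genes lay the other way, with DSY127 lowest in 12 of 17 (70.6%) at a median of -0.46, or -0.17 against No20 alone. HMGCS1, an early enzyme of the pathway, had 186 CPM in DSY127, 520 in No40, 279 in No20 and 195 in the iPS library. DSY127 and the iPS library were both low in HMGCS1, and with the iPS library in the place of No40 the median was -0.002. Interferon response genes had DSY127 lowest in 14 of 24 (58.3%) at a median of -0.62, with OAS3 set apart, and the median was -0.21 against No40 alone. IFI6 had 1.83, 7.88 and 3.43 CPM and OAS2 5.70, 10.9 and 15.3 CPM, again with low values in the iPS library (2.57 and 2.05 CPM).

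The HOX genes, which pattern the body axis, were mostly low, and in 4 of 21 DSY127 or the mean of the others reached 5 CPM. CPM of the list summed to 28.2 in DSY127, 24.6 in No40 and 142 in No20. DSY127 was highest in 0 of 21 and lowest in 11, at a median of -1.18. That value rested on No20: against No40 alone the median was -0.04, and with the iPS library in the place of No20 it was 0.58. HOXD1 had 6.04 CPM in DSY127, 1.25 in No40 and 54.2 in No20, and HOXA13 0.332, 0.706 and 6 CPM. The markers of fibroblasts gave DSY127 highest in 8 of 36 and lowest in 10, at a median of -0.12, or 0.02 against No40 alone. Defining markers of other cell types were low: PTPRC of blood was at or under 0.182 CPM in all 3 lines, and PAX6 of the neural lineage stood at 0.914, 0.605 and 2.09 CPM. Among 18 tested neural genes DSY127 was highest in 11 and lowest in 3, at a median of 0.43, with 0 called or set apart.

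**Figure D4:**
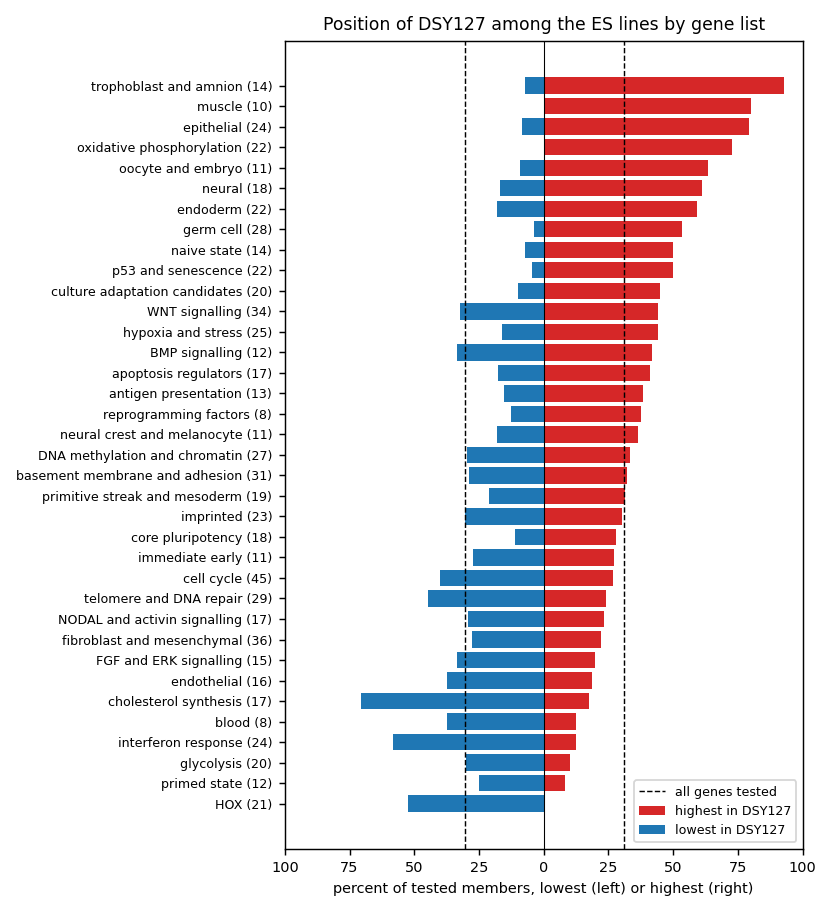
For each gene list with at least 8 tested members, bars give the percent of members in which DSY127 was the highest (right) or lowest (left) of the 3 ES lines, with the number tested in brackets. Dashed lines mark the shares over all genes tested, 30.9% highest and 30.4% lowest.

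By chromosome, DSY127 stood level with No40. Over genes with a mean of at least 5 CPM in the ES lines, the median log2 difference of DSY127 from No40 was between -0.14 and 0.09 on every chromosome from 1 to 22 and X. Against No20 it was -0.37 on chromosome 9 (590 genes) and -0.35 on chromosome 15 (445 genes), where the difference from the iPS library was 0.05 and -0.02. On these chromosomes it was thus No20 that stood apart from all of DSY127, No40 and the iPS library. On chromosome 22 (717 genes) DSY127 lay 0.27 above No20 and 0.25 above the iPS library, and 0.05 above No40. The genes set apart were spread over the chromosomes, with a share per chromosome from 0% on chromosome 16 to 1.32% on chromosome 6, against 0.575% over all genes tested.

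**Figure D5:**
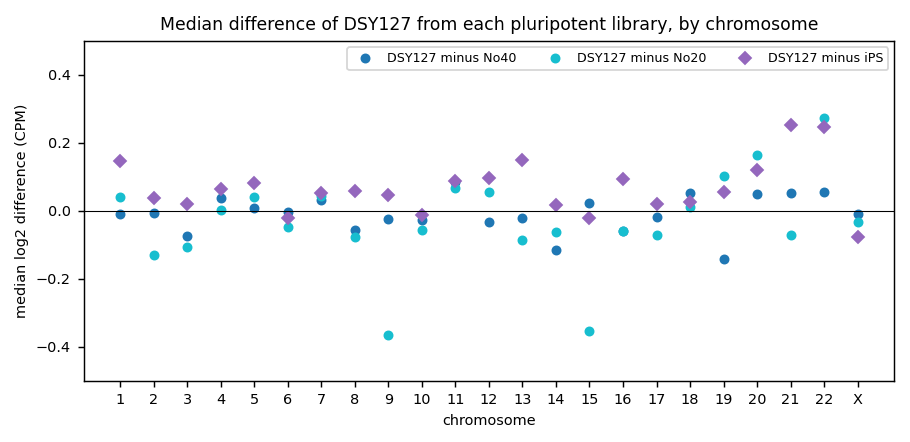
Median log2 CPM difference of DSY127 from No40, No20 and the iPS library for each chromosome, over genes with a mean of at least 5 CPM in the ES lines. The points against No40 lie near 0 throughout, while those against No20 fall to -0.37 and -0.35 on chromosomes 9 and 15.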

How the data were processed

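Per the labels' protocols, an RNeasy Mini Kit was used to isolate total RNA. The values deposited by the authors are raw read counts for each gene. They come as 1 joint table and as separate files, which held identical counts for 5 of 5 libraries. The submitters' processing notes name featureCounts 1.5.2, STAR 2.5.3a and Trim Galore 0.4.0. The build, and how strand, overlaps and multi-mapping reads were handled: not given in the sources used here. Close paralogs and genes with overlapping neighbours (NLRP, HOX, keratin, serpin and actin genes, POU5F1) are therefore uncertain to that extent.

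Symbols were found for 12660 (41.1%) of the 30811 identifiers. In R 4.3.3, filterByExpr on the ES libraries left 16858 genes (11274 with a symbol). Libraries were scaled with TMM factors over all 5 (1.059 for DSY127, 1.066 for No40, 1.077 for No20, 1.017 for iPS and 0.809 for fibroblasts). DSY127 was tested against No40 and No20 with edgeR 4.0.16 (glmQLFit, glmQLFTest), with 1 residual degree of freedom and a common biological coefficient of variation of 0.478, and Benjamini-Hochberg adjustment over all genes tested. Log2 CPM used a prior count of 2. Floors of 3 counts cover counting error only. Alternatives used limma 3.58.1 and DESeq2 1.42.0. The steps were tested on simulated counts with less spread than these data and with the same means in No40 and No20. The error rate in these data was therefore not tested. No batch is given in the labels, and chromosome Y of the files was left out of the medians.

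The comparison, the 38 gene lists (711 of 1062 distinct symbols matched) and the tests were chosen with earlier results of these data known. Named genes were, by rule, the 12 genes with a symbol set apart by most in each direction (6 existed lower), called genes, set-apart list members, 9 fixed pluripotency and epithelial genes and at most 2 unnamed genes in each direction. XIST, also in the rule, had no match, and some genes the rule gives are not reported here. Other genes, including GATA2, LAD1, NLRP7, CER1, GC, MPC1 and HMGCS1, were named after their values were seen.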

Additional observations from a re-analysis of the deposited data

How the results depend on the processing

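No paired analysis was possible because each ES line has 1 library. Calls against the other ES lines were 7 higher and 1 lower, and stayed at 5 to 8 higher and 1 lower with other scaling factors, over genes with a mean of at least 5 CPM and with all 5 libraries fitted. They were 69 and 16 with no low-count filter, 37 and 10 with DESeq2, and 3 and 0 with limma voom (406 and 87 at an unadjusted p under 0.05). With the iPS library added they were 0 and 0, or 11 and 6 with DESeq2, an alternative chosen after seeing the data. With either ES line replaced by the iPS library they were 0 and 0 (unadjusted, 98 and 44 without No40, 192 and 189 without No20). KRT7 was called in 9 of 12 fits, PIK3C2G in 8 and TBXT in 5.

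Genes set apart higher (83) and lower (14) were 45 higher with a mean of at least 5 CPM, 27 and 7 with the iPS library added, 274 and 180 at 2-fold, 34 and 4 at 8-fold, 149 and 33 at 1 CPM, and 36 and 6 at 20 CPM. Leaving out No40 or No20 gave 333 and 135 higher (37 and 40 with the iPS library in its place) and 112 and 87 lower (19 and 16). At 8-fold 25% of the lower genes had the iPS library nearer to DSY127. The share of genes under 1 CPM in fibroblasts was also chosen after seeing the data.

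List medians changed sign as follows. With the iPS library in the place of No20 they were -0.075 (naive), -0.365 (germ cell), 0.574 (streak and mesoderm), 0.577 (HOX) and 0.116 (primed). With it in the place of No40 they were -0.025 (germ cell) and 0.252 (core pluripotency). Against No40 alone they were 0.51 (streak and mesoderm), 0.266 (immediate early), 0.024 (fibroblast) and 0.122 (primed). Core pluripotency was 0.089 with voom, 0.01 with the iPS library added and 0.606 against No20 alone. The cause of these changes was not tested. No scaling factor tried changed the sign of a median among the lists recomputed here. A shallow iPS library limits values under about 0.513 CPM.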

Other observations

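Some signalling and growth genes outside the groups above also differed between the lines. GDF3, a NODAL-related ligand of pluripotent cells, had 678 CPM in DSY127, 184 in No40, 45.1 in No20 and 511 in the iPS library, and was not called. USP9X, an X-linked deubiquitinase, had 216, 704, 287 and 479 CPM in that order, lowest in DSY127. The imprinted CDKN1C, a cell cycle inhibitor, had 25.3, 65.5, 76.4 and 27.0 CPM, so that DSY127 and the iPS library held similar low levels.

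In lists of housekeeping processes no gene was called or set apart. DSY127 was highest in 11 and lowest in 1 of 22 p53 and senescence genes (median log2 fold change 0.26), highest in 2 and lowest in 6 of 20 glycolysis genes (-0.20), highest in 12 and lowest in 18 of 45 cell cycle genes (-0.21), and highest in 7 and lowest in 13 of 29 telomere and DNA repair genes (-0.16). The imprinted list was even, with 7 highest and 7 lowest of 23.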
